A study of Homo sapiens with 9 samples.

Results

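HK-1 cells, a human epithelial cell line derived from nasopharyngeal carcinoma (NPC), were compared after 10 µM baicalein and without treatment on 6 single-colour DNA microarrays, taken as 3 pairs of a treated and a control array. The probes described here are the 1657 named gene probes, of 25378 on the array (6.53%), chosen by their net intensity, which had to exceed the 95th percentile of that array's empty spots on 5 or more of the 6 arrays. They named 1630 genes of 19402. The 3 treated arrays held RNA from cells grown as a monolayer in Petri dishes and kept for 24 h in serum-free medium with 10 µM baicalein, before the medium was renewed. The 3 control arrays held RNA from the same cell line, labelled as non-treatment. Baicalein was dissolved in dimethyl sulfoxide, and the study's methods name that solvent as the control of its experiments. The study calls the arrays of a group biological replicates of this 1 cell line, and 3 further arrays of cells given 20 µM baicalein for 24 h are used only for side-by-side values.

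Baicalein is a flavone from the root of Scutellaria baicalensis, known as an inhibitor of lipoxygenases and as an antioxidant. Flavones are also known as ligands of the aryl hydrocarbon receptor, and electrophilic polyphenols as inducers of the transcription factor NRF2. Cells attach to the extracellular matrix through integrins, which gather focal adhesion proteins and kinases on the inside of the membrane. The study asked which genes and pathways behind migration, invasion and adhesion respond to 10 µM baicalein.

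Each array held 39200 spots, of which 29187 carried gene probes and 8926 were empty, and 3809 gene spots had no gene name. Net intensity is the raw intensity of a spot minus its local background, which made up 70.2% to 74.4% of the raw intensity of the described probes on the 6 arrays. Between 8.80% and 9.20% of named probes passed the empty spots on 5 arrays, whereas 17.4% did on control replicate 1. By their headers, arrays of the same replicate number were scanned in 1 batch, 1 from each group, and these 3 batches set the 3 pairs.

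Since the probes were selected on their level on these 6 arrays, levels are given as a description without a test. Of the 1657 probes, 1311 passed on all 6 arrays and 346 on exactly 5. Among the latter, 248 were missed on a 10 µM array and 98 on a control array, 70 of these on control replicate 2. Their median net intensity was 3067, 2331 and 2683 on the 10 µM arrays, against 3730, 2536 and 2732 on the control arrays. The 10 µM value was thus the lower in each pair before normalisation. For empty spots the 95th percentile was 1519, 1302 and 1353 on the 10 µM arrays, against 1430, 1333 and 1266 on the control arrays. The remaining named probes had medians below those of the empty spots on all 6 arrays, and 19663 of the 25378 named probes passed on none of them.

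**Figure D1:**
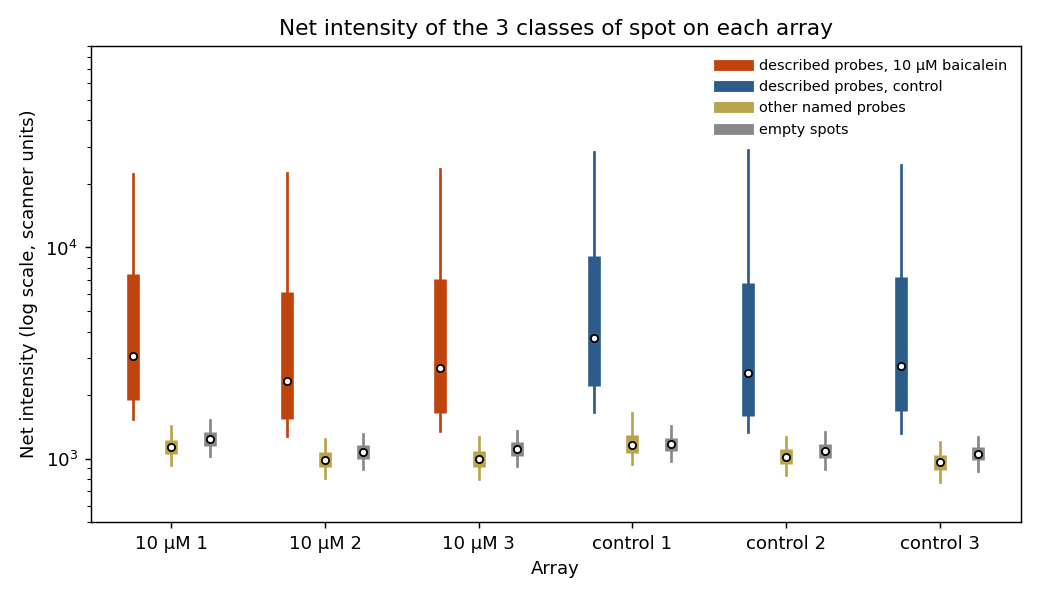
Net intensity in scanner units (log axis) on each of the 6 arrays for the 1657 described probes, the 23721 other named probes and the 8926 empty spots. White points are medians, thick bars run between the 25th and 75th percentiles and thin lines between the 5th and 95th. The described probes, selected for passing the empty spots, have medians above the thin line of the empty spots on all 6 arrays, while their own thin line begins within it on 10 µM replicates 2 and 3.

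The brightest of the described probes were CLCN2 (a chloride channel), TMEM216 (a protein of the ciliary transition zone), CYP1A2 (a cytochrome P450 of drug metabolism), C17orf37 (now MIEN1, a membrane-anchored regulator of cell migration) and ZNF687 (a zinc finger protein). Normalised net intensity of CYP1A2 was 45741, 46551 and 46198 on the 10 µM arrays, against 47256, 36313 and 48171 on the control arrays. The groups overlapped, and the same held for the other 4. Just inside the threshold stood EIF3K, a subunit of a translation initiation factor, with normalised values of 1823, 1531 and 1426 on the 10 µM arrays, against 1431, 1298 and 1420 on the control arrays. AANAT, an enzyme of melatonin synthesis, was the other probe just inside. Just outside stood AGBL2, with 1581, 1469 and 1327 on the 10 µM arrays, against 1397, 1412 and 1516 on the control arrays, and LOC100293640. The groups overlapped for all 4 of these dim probes.

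No described probe passed an adjusted p of 0.05 between 10 µM and control (paired limma, Benjamini-Hochberg over 25378 probes, lowest adjusted p = 0.952). The background of calls over all named probes was 0%. At an unadjusted p under 0.05 there were 141 of the 1657 (8.51%), 59 higher and 82 lower at 10 µM, where 4.9% of all named probes had such a p (2.35% higher, 2.55% lower). With no replicate block the shares were 5.13% of the 1657 and 4.57% of all named probes, and with all 9 arrays in 1 fit 2.29% and 3.39%. All 3 pairs went one way for 497 probes (30%), 225 higher and 272 lower, against 25.4% of all named probes (12.7% higher, 12.8% lower). For 191 probes (11.5%) all treated arrays lay on one side of all control arrays, above them for 84 and below them for 107, against 10.1% of all named probes (5.04% higher, 5.05% lower). With 3 arrays a group, an exact permutation test that ignores the pairs has a smallest possible p of 0.1. For an exact sign-flip test of the 3 pairs it is 0.25.

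Differences were small for most of the 1657 probes. On the log2 scale of normalised net intensity the median difference was -0.00033, with 825 probes higher and 832 lower at 10 µM, and 9 in 10 lay between -0.36 and 0.31. That split depended on the scaling, with 458 higher and 1199 lower under median centring alone and 678 higher and 979 lower on raw intensity. The median standard error of a difference was 0.17. Only 12 probes differed by more than 1 on this scale, 2 higher and 10 lower. The probes named below were those of lowest p with 3 pairs in one direction, 10 either way, and since none passed the adjusted threshold their values are given as measured differences (adjusted p = 0.952 for each, limma, n = 3 pairs).

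Of the 10 probes with higher values at 10 µM, HGF and NTF3 encode secreted growth factors. HGF, the ligand of the receptor MET that scatters epithelial cells, had a normalised net intensity of 12220, 9333 and 12677 on the 10 µM arrays, against 8803, 4439 and 9333 on the control arrays. The lowest treated array equalled the highest control array, so the groups touched, and the difference was 0.66 ± 0.17 (log2, SE). NTF3, or neurotrophin-3, a ligand of TRK receptors, had 2003, 1924 and 2997 at 10 µM, against 1315, 1223 and 1486 in controls. Its groups did not overlap, by 0.76 ± 0.17, but its control values lay near the level of the empty spots and passed it on 2 of the 3 control arrays.

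CEP164, a centriole protein needed to build the primary cilium, had 24683, 13757 and 25081 at 10 µM, against 17624, 9782 and 11026 in controls. Each treated array exceeded its own control while the groups overlapped, since control replicate 1 lay above treated replicate 2, and the difference was 0.72 ± 0.14. KIFC3, a kinesin that moves towards microtubule minus ends, had 3727, 5187 and 4987 at 10 µM, against 2041, 2596 and 3485 in controls. GIPC1, a scaffold that links receptors to a myosin motor, had 2390, 4658 and 4147 at 10 µM, against 1667, 2113 and 2093 in controls. ARFGAP2, which switches off ARF1 on Golgi vesicles, had 10100, 13444 and 19009 at 10 µM, against 7603, 9067 and 7994 in controls. The groups did not overlap for KIFC3 (0.79 ± 0.19), GIPC1 (0.88 ± 0.20) or ARFGAP2 (0.74 ± 0.17).

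CA13, a cytosolic carbonic anhydrase, had the largest positive difference of the 1657 probes, 1.62 ± 0.33, or 3.08-fold. It had 13316, 9434 and 9067 at 10 µM, against 10320, 2947 and 1276 in controls. The pair differences were 0.37, 1.68 and 2.83, so the size came from the 2 dim control arrays, 1 of them below the empty spots, and control replicate 1 lay above the treated arrays 2 and 3. IER3, an early response gene of growth factors and stress, was the most even of these probes on the treated arrays, with 7545, 7411 and 7289 at 10 µM, against 5175, 3943 and 4215 in controls (0.75 ± 0.18, groups apart). FAM178A (now SLF2, which recruits a DNA repair complex) had 16728, 14061 and 25588 at 10 µM, against 12422, 10792 and 12483 in controls (0.62 ± 0.14, groups apart). FASTK, a kinase-like protein of mitochondrial RNA metabolism, had 36313, 29696 and 33702 at 10 µM, against 31021, 23109 and 28422 in controls, and its 0.28 ± 0.07 was the smallest of the 10 differences.

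**Figure D2:**
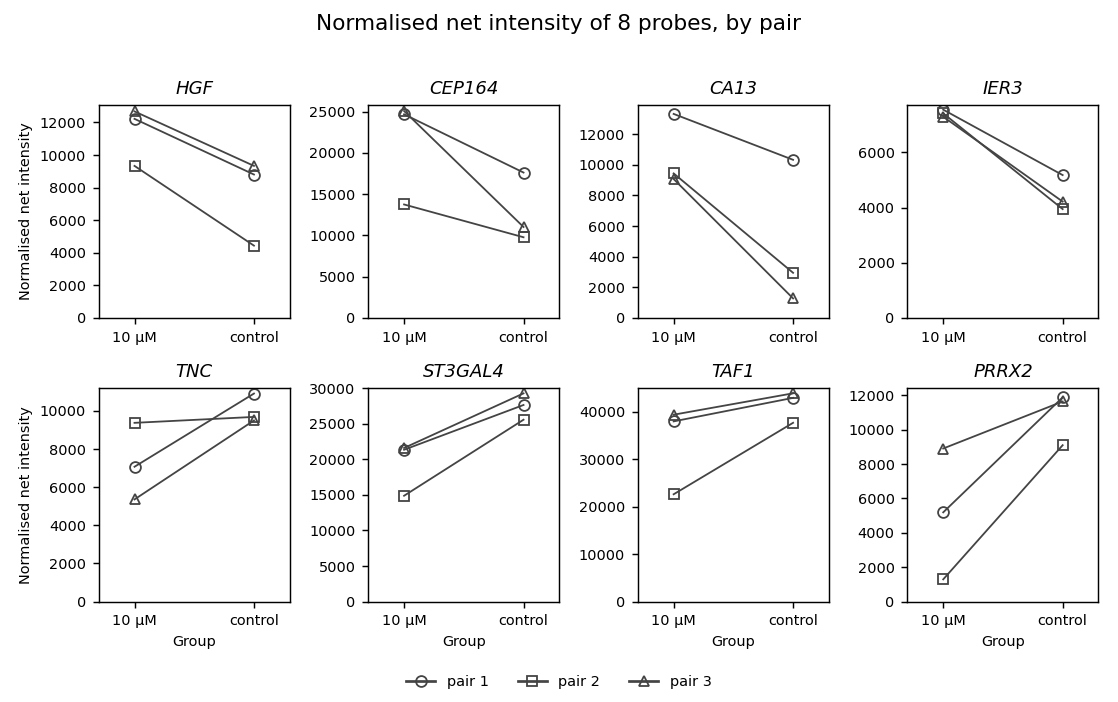
Normalised net intensity (scanner units, linear axis from 0) of 8 of the described probes, 10 µM left and control right, with a line joining the arrays of each pair. HGF, CEP164, CA13 and IER3 were higher at 10 µM in all 3 pairs, and TNC, ST3GAL4, TAF1 and PRRX2 lower, with PRRX2 on treated replicate 2 at 1291.

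Among the 10 probes with lower values at 10 µM, ST3GAL4 had the lowest p of all 1657. It encodes a sialyltransferase that caps cell-surface sugars, and it had 21359, 14887 and 21610 at 10 µM, against 27661, 25588 and 29295 in controls. The groups did not overlap and the difference was -0.53 ± 0.10. NAPEPLD, a phospholipase that makes N-acylethanolamines, had 19479, 19770 and 17231 at 10 µM, against 23787, 26616 and 20899 in controls (-0.33 ± 0.09, groups apart). Both encode enzymes, as do C15orf58 and TOP1MT below.

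MRPS12, of the small subunit of the mitochondrial ribosome, had 1781, 1115 and 2934 at 10 µM, against 3220, 4127 and 4287 in controls (-1.10 ± 0.24). TOP1MT, the mitochondrial topoisomerase, had 2666, 1829 and 3295 at 10 µM, against 5052, 4806 and 4467 in controls (-0.92 ± 0.22). In both, the groups did not overlap and treated replicate 2 was the lowest array. MRPS12 did not pass the empty spots on that array, so its value there has only an upper bound.

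ALX1, PRRX2 and TAF1 encode transcription factors. ALX1, a homeobox factor of craniofacial development, had 4439, 1090 and 8618 at 10 µM, against 10684, 10100 and 10949 in controls (-1.61 ± 0.38). PRRX2, a related homeobox factor of mesenchyme, had 5192, 1291 and 8907 at 10 µM, against 11885, 9101 and 11644 in controls (-1.47 ± 0.33). For both the groups did not overlap, but pair 2 differed by -3.21 and -2.82 and pair 3 by only -0.35 and -0.39. Neither passed the empty spots on treated replicate 2, so the sizes of pair 2 rest on unmeasured levels there. TAF1, the scaffold subunit of the general factor TFIID, had 38016, 22635 and 39427 at 10 µM, against 42979, 37719 and 43942 in controls, and its groups overlapped (-0.36 ± 0.10).

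C15orf58 (now GDPGP1, a phosphorylase of GDP-glucose) had 5956, 1923 and 6866 at 10 µM, against 10224, 10183 and 10353 in controls (-1.26 ± 0.28). Its 3 control arrays agreed closely, and treated replicate 2 again lay far below the other treated arrays. C22orf39 had 15408, 16845 and 17322 at 10 µM, against 22902, 22401 and 20813 in controls (-0.42 ± 0.10, groups apart). C3orf70 had pair differences of -0.42, -0.43 and -0.39, the most even of these 10, although its groups overlapped.

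**Figure D3:**
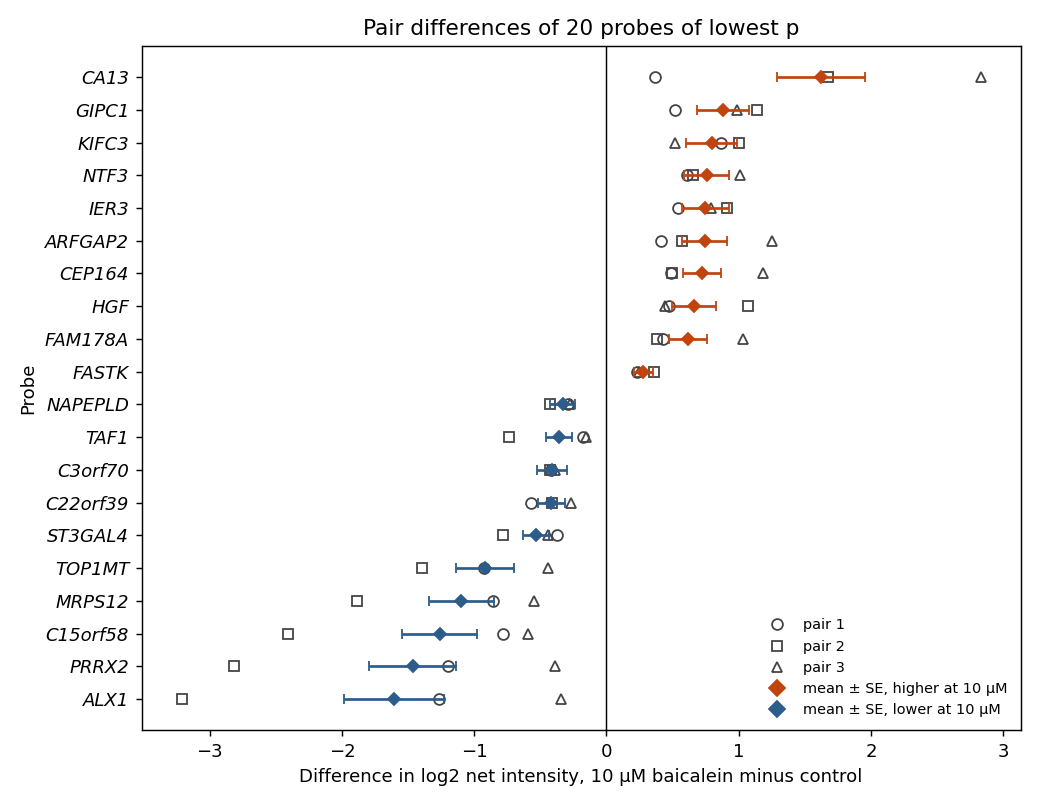
Differences in log2 normalised net intensity, 10 µM minus control, of the 20 probes of lowest p whose 3 pairs went one way. Open symbols are the 3 pairs and filled diamonds the mean with its standard error. For MRPS12, C15orf58, PRRX2 and ALX1, pair 2 lies far to the left of the other pairs.

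The place of a spot on the array moved with these differences. All 10 lower probes lay in the last 3 of 20 equal stretches of the spot order (spots 33321 to 39200), and none of the 10 higher probes did. Those stretches held 193 of the 1657 probes, of which 57 (29.5%) had an unadjusted p under 0.05, 55 lower and 2 higher at 10 µM. Over all named probes in the last 3 stretches the count was 231 of 3781 (6.11%), 107 lower and 124 higher. In the other 17 stretches 84 of 1464 did (5.74%), 57 higher and 27 lower, where 4.69% of all named probes there had such a p. The last stretch alone held 26 of the 82 lower probes and no higher one.

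**Figure D4:**
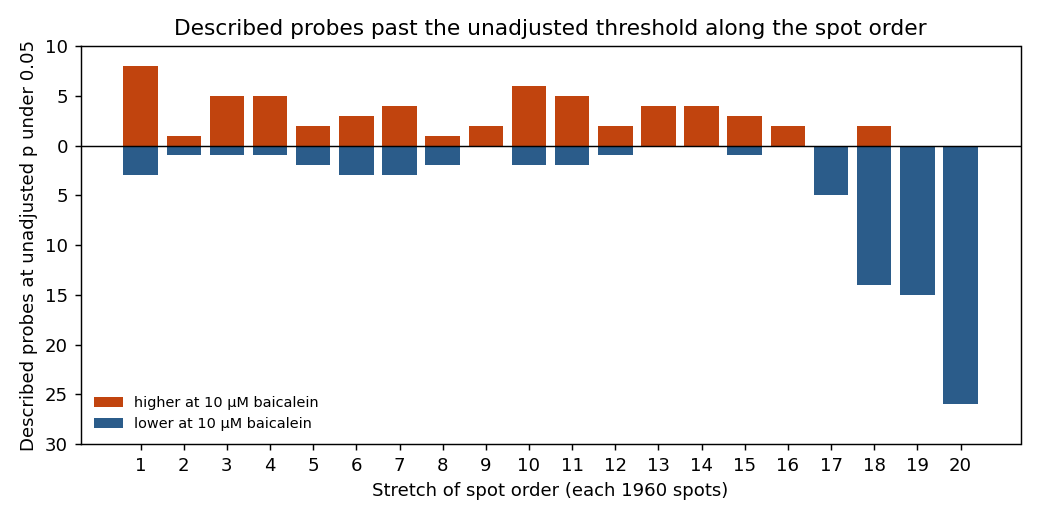
Number of described probes at an unadjusted p under 0.05 in each of 20 stretches of 1960 spots, higher at 10 µM upwards and lower downwards. The last 3 stretches hold 14, 15 and 26 lower probes, and no earlier stretch holds more than 5.

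Before normalisation the 56 probes of the last stretch had a median net intensity of 3698, 1895 and 3583 on the 10 µM arrays, against 5077, 3809 and 4330 on the control arrays. Treated replicate 2 was the dimmest array there, and their median differences were -0.18, -0.43 and -0.26 in pairs 1 to 3, so all 3 pairs were shifted. Local background repeated along the spot order with a period of 112 spots (autocorrelation 0.46 on treated replicate 2, against 0.36 at 111 spots), and the array was drawn on that basis as 350 rows of 112 columns. The autocorrelation was also high at 14 spots (0.51), and the layout is inferred, since the files give no row or column. In the corner of rows 301 to 350 and columns 71 to 112 the 68 described probes had median differences of -0.27, -0.64 and -0.25. There 16 probes were lower by more than 1 in pair 2, against 2 of the other 1589.

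**Figure D5:**
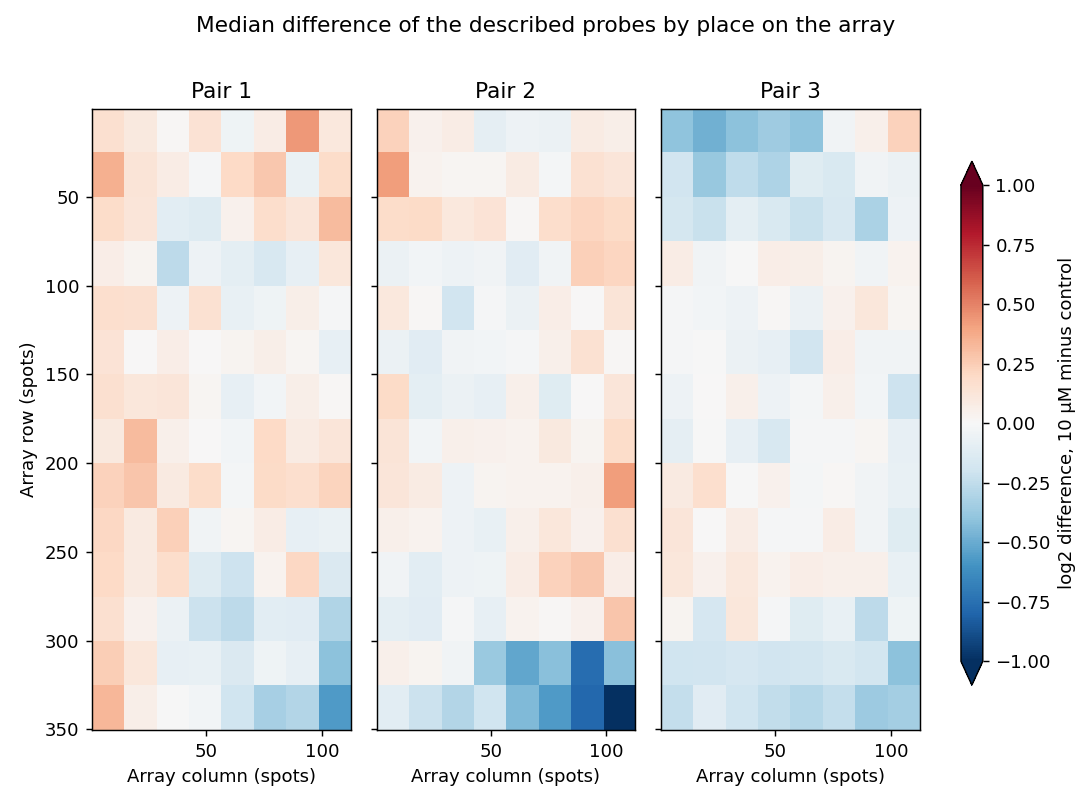
Median difference in log2 normalised net intensity of the described probes, 10 µM minus control, in blocks of 25 rows by 14 columns of the inferred array layout, for pairs 1 to 3. The lower right corner is negative in all 3 pairs and deepest in pair 2, and the upper left of pair 3 is also negative.

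A smooth trend over rows and columns was then removed from each array. It was fitted to the described probes and to the other named probes separately, so the part removed here came from the described probes themselves. After its removal the higher probes had similar values and several lower ones did not. CEP164 then differed by 0.74, CA13 by 1.54, GIPC1 by 0.82, ARFGAP2 by 0.78 and IER3 by 0.72. ST3GAL4 differed by -0.12, NAPEPLD by -0.10, C22orf39 by -0.020 and TAF1 by 0.037. The probes with the widest pair 2 had smaller differences than before, -1.16 for ALX1, -1.06 for PRRX2, -0.81 for MRPS12, -0.78 for C15orf58 and -0.52 for TOP1MT. For ALX1 the pairs then differed by -0.79, -2.71 and 0.017, so that only the first 2 were lower. After that step 101 of the 1657 probes (6.1%) had an unadjusted p under 0.05, 64 higher and 37 lower. Of all named probes 4.81% then had such a p, and none of the 1657 passed the adjusted threshold. The part of array position in each single difference was not tested.

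Outside the last stretches, fewer probes were lower at 10 µM. TNC, the matrix glycoprotein tenascin-C, had 7072, 9376 and 5358 at 10 µM, against 10913, 9687 and 9501 in controls, and its groups did not overlap (-0.50 ± 0.18). The next 3, at an unadjusted p under 0.05, were chosen after their values were seen. DDX31, a helicase of ribosome assembly, had pair differences of -0.08, -0.33 and -0.27. PCDH1, a protocadherin of airway epithelium, had 2028, 1353 and 1924 at 10 µM, against 3152, 2236 and 2135 in controls. SLC6A9, a glycine transporter, had 1465, 1509 and 1124 at 10 µM, against 1725, 2107 and 1840 in controls, values close to the empty spots in both groups.

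Higher probes outside those stretches included, by the same later choice, CAV2, CXCL1, ABCC1 and S100A1. CAV2, a caveolin of plasma membrane pits and focal adhesions, had 21141, 18126 and 22236 at 10 µM, against 16575, 15296 and 18920 in controls, with pair differences of 0.35, 0.24 and 0.23. CXCL1, a neutrophil-attracting chemokine, had 17322, 12827 and 14035 at 10 µM, against 11592, 12483 and 9589 in controls, and the groups did not overlap. S100A1, a calcium-binding protein, had 5716, 6563 and 7318 at 10 µM, against 4241, 4007 and 4580 in controls, again without overlap. ABCC1, a drug efflux pump, had pair differences of 0.42, 0.39 and 0.46 at levels near the empty spots.

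In several probes most of the difference lay in 1 pair. TBCA, a tubulin-folding cofactor, had 24721, 28232 and 1753 at 10 µM, against 26864, 33447 and 25458 in controls, so only treated replicate 3 departed. WNT10A, a secreted WNT ligand, differed by 0.47, 0.09 and -4.61 in pairs 1 to 3. TANK, an adaptor of innate immune signalling, differed by -0.21, -0.21 and 3.84. MGAT2, a Golgi enzyme of N-glycan synthesis, had 14035 on control replicate 1, while the other 5 arrays lay between 1410 and 1619. ARSB, a lysosomal sulfatase, had the most negative difference of all 1657 probes, -1.92, with -0.74, -4.90 and -0.12 in the 3 pairs, and its spot lay in the last stretch. ARSB passed the empty spots on 5 of the 6 arrays. All 3 of its pairs were lower, with an adjusted p of 0.952 (paired limma). Without pair 2 it differed by -0.45, in a fit with 1 residual degree of freedom before moderation.

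Pair by pair, the described probes agreed weakly. Across the 1657 probes the correlation of the differences was 0.196 between pairs 1 and 2, 0.014 between pairs 1 and 3 and 0.177 between pairs 2 and 3. These are descriptions across probes of the same 6 arrays. Outside the last 3 stretches they were 0.118, -0.026 and 0.139 (n = 1464), and within them 0.321, 0.248 and 0.173 (n = 193). Arrays of one group were about as far apart as the arrays of a pair. The median absolute log2 difference was 0.207, 0.185 and 0.159 within the 3 pairs. It was 0.251, 0.225 and 0.179 between 10 µM arrays, and 0.187, 0.169 and 0.170 between control arrays.

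Integrins, the receptors for the extracellular matrix, were mostly not measured above the empty spots. Of 35 integrin probes 5 were among the 1657, for ITGB1, ITGB4 (2 probes), ITGB6 and ITGA6, and none had an unadjusted p under 0.05 (2 higher, 3 lower, median difference -0.018). Both probes of ITGB8, the integrin that the study followed further, passed the empty spots on 0 of the 6 arrays. ITGB4, the laminin receptor subunit of hemidesmosomes, had 3587, 2901 and 2750 at 10 µM on its first probe, against 3114, 2312 and 2438 in controls. Its second probe had 5676, 4688 and 4483 at 10 µM, against 4817, 3674 and 4278 in controls. The groups overlapped on both probes, and the differences were 0.24 ± 0.18 and 0.22 ± 0.18.

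Of 282 probes for focal adhesion genes 29 were among the 1657, 16 higher and 13 lower at 10 µM, with a median difference of 0.035 and a range of -0.50 to 0.66. None passed the adjusted threshold. At an unadjusted p under 0.05 were HGF and CAV2, which were higher, and TNC and COMP, which were lower. Such a p was found for 8.51% of the described probes and 4.9% of all named probes. COMP, a cartilage matrix protein, differed by -0.46, -0.38 and -0.44 in the 3 pairs. SRC, the kinase recruited to adhesions, differed by 0.22 ± 0.16 and ILK, a pseudokinase bound to integrin tails, by -0.21 ± 0.19, and neither had an unadjusted p under 0.05. Of 35 probes for cadherins and catenins 6 were included, 4 higher and 2 lower, with CDH7 at -0.25 ± 0.12 and CDH10 at 0.26 ± 0.24. Of 38 probes for genes of epithelial-mesenchymal transition 6 were included, 5 higher and 1 lower, among them S100A4 at -0.28 ± 0.19 and TGFBR1 at 0.08 ± 0.18.

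The core of PI3K-Akt signalling gave 5 of 53 probes, 2 higher and 3 lower, none at an unadjusted p under 0.05. MLST8, a subunit of the mTOR complexes, had 4658, 4342 and 1293 at 10 µM, against 5204, 4181 and 4181 in controls, so that only treated replicate 3 was low, and it did not pass the empty spots there. FOXO4, a transcription factor that Akt keeps out of the nucleus, differed by -0.37, -0.30 and -0.34, and its spot lay in stretch 18. Among arachidonate enzymes, which include the lipoxygenases, 2 of 20 probes were included. LTC4S, which makes leukotriene C4, differed by -0.21 ± 0.14 and PTGES3, a prostaglandin E synthase and HSP90 cochaperone, by 0.05 ± 0.18.

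Targets of NRF2, p53 and other stress factors were looked up next. None of 30 probes for NRF2 targets and none of 31 for p53 targets were among the 1657. Of 13 probes for targets of the aryl hydrocarbon receptor 2 were, CYP1A2 (0.08 ± 0.08) and AHRR, the receptor's repressor (-0.17 ± 0.19), or 15.4% of that short list, where 6.53% of all named probes were included. Hypoxia targets gave 2 of 42 probes, PFKFB4, which regulates glycolysis, with -0.44 ± 0.15, and SLC2A3, a glucose transporter, with -0.15 ± 0.19. PFKFB4 was lower in all 3 pairs with groups apart, passed the empty spots on 2 of the 3 treated arrays, and its spot lay in stretch 18. The unfolded protein response gave 2 of 27 probes, the stress factor ATF3 (0.15 ± 0.10) and the chaperone HSPA5 (-0.10 ± 0.17).

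Of 65 probes for S phase and mitosis only UBE2C, an enzyme of the mitotic exit pathway, was included (1.54%). It had 16404, 12220 and 15540 at 10 µM, against 16476, 18822 and 18429 in controls (-0.29 ± 0.13). Its 3 treated arrays lay below the controls, pair 1 differed by only -0.01, and the spot lay in stretch 18. Proteasome subunits gave 4 of 41 probes (9.76%), with PSMD8 at 0.35 ± 0.20 and PSMA1 at 0.19 ± 0.11. Ribosomal proteins gave 3 of 101 probes (2.97%, where 6.53% of all named probes were included), all higher by small values (RPL23 0.13 ± 0.11, RPL10 0.07 ± 0.11). Histones gave 3 of 59 (5.08%, HIST1H1A 0.25 ± 0.17, HIST1H2AK -0.15 ± 0.11). Of 25 probes for glycolysis and housekeeping genes only PFN1, or profilin, was included (4%). It had 1830, 9387 and 8157 at 10 µM, against 7444, 6641 and 5187 in controls.

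Markers of the labelled cell type were weak on these arrays. Of 31 probes for squamous and epithelial markers 3 were among the 1657, for ITGB4 (2 probes) and the junction protein plakoglobin (JUP), and 24 passed the empty spots on none of the 6 arrays. None of the 11 keratin probes on that list was included. Normalised net intensity was summed over all 31 probes, including the 24 that passed on none. The sum was 42306 to 45182 at 10 µM, against 40652 to 40929 in controls, without overlap. On each of the 3 included probes the groups overlapped, and groups were also apart for 10.1% of all named probes taken singly. The part of this sum in other differences was not tested. Of 24 lymphocyte and myeloid probes 1 was included (CD3D, 0.02 ± 0.18) and 19 passed on none. Of 22 fibroblast and endothelial probes 4 were included (with CLDN5 at 0.18 ± 0.17 and PDGFRB at -0.17 ± 0.23) and 15 passed on none. Their summed intensities overlapped between the groups, from 26762 to 27516 at 10 µM, against 26614 to 28339 in controls, and from 29030 to 30984, against 27649 to 31513. Olfactory receptors, known mainly from the nose, gave 11 of 303 probes (3.63%), 3 higher and 8 lower.

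Different probes of a gene rarely passed the empty spots together. Of the 1630 genes 592 had more than 1 named probe, and in 54 of 744 pairings (7.26%) the other probe of the gene was also included, where 6.53% of all named probes were. For 27 genes 2 probes were included, and their differences had the same sign in 16 and opposite signs in 11. The probes of ZNF655, a zinc finger protein, differed by -0.28 and 0.42, each at an unadjusted p under 0.05. FAM178A was higher on both probes (0.62 ± 0.14 and 0.32 ± 0.16) and SPAM1, a hyaluronidase, had negative differences on both (-0.25 ± 0.10 and -0.28 ± 0.20). Both SPAM1 spots lay in stretch 18, and with the trend over rows and columns removed pairs 2 and 3 of the second probe differed by 0.063 and 0.070. KLHDC5 (now KLHL42, a substrate adaptor of a ubiquitin ligase) differed by -1.50 ± 0.43 on a probe in the last stretch and by -0.11 ± 0.17 on a probe in stretch 5. Likewise KLHL36 differed by -0.58 ± 0.19 in the last stretch and 0.01 ± 0.16 in stretch 16. SETD3, a histidine methyltransferase of actin, differed by -0.53 ± 0.20 in stretch 18 and 0.07 ± 0.17 in stretch 14. FAM178A, SPAM1, KLHDC5, KLHL36 and SETD3 were picked by the lowest p of either probe. In each, 1 probe was thus extreme by that choice. The first probes of KLHDC5 and SETD3 passed the empty spots on 2 of the 3 treated arrays, with 1058 and 1171 on treated replicate 2.

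At 20 µM the described probes were less often above the empty spots, 1130 (68.2%), 1077 (65.0%) and 1417 (85.5%) of them on the 3 arrays and 819 (49.4%) on all 3. The rule did not use the 20 µM arrays, so a lower share there is partly set by the choice of probes. Both doses share the control arrays, and the values at 20 µM come from a fit of all 9 arrays. CA13 differed from control by 1.62 at 10 µM in the paired fit and by 0.69 at 20 µM in that fit. CEP164 differed by 0.72 at 10 µM and by -0.92 at 20 µM. At 20 µM CEP164 and CA13 passed the empty spots on 2 of the 3 arrays and NTF3 on 1, so these values rest partly on levels not above them. HGF differed by 0.34, ARFGAP2 by 0.68, IER3 by 0.09 and NTF3 by 0.03 at 20 µM. ST3GAL4 differed by -1.51, ALX1 by -1.30, PRRX2 by -1.36 and MRPS12 by -0.81 at 20 µM, and each passed the empty spots on 2 of the 3 arrays there. In the last stretch 20 µM replicate 2 had a median net intensity of 1034, against 3433 and 3166 on the other 20 µM arrays.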

How the data were processed

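The authors hybridised Cy3-labelled cDNA to single-colour arrays and deposited scanner files that list the raw, background and net intensity of every spot. The deposited table of processed values is a score of unstated scale and centring. Its ranks followed net intensity on every array (Spearman's rho 1), its column medians lay between -0.14 and 0.0043, and it served only as an alternative. The authors' methods took log2 values of intensity, centred and quantile-normalized them, and compared the groups by an unpaired t-test.

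Here net intensity was scaled to a common median, floored at 16 (never reached), log2-transformed and quantile-normalized over the 6 arrays. limma 3.58.1 in R 4.3.3 fitted replicate number and treatment with a mean-variance trend to all 25378 named probes, and p-values were adjusted over all of them by Benjamini-Hochberg. Each probe has 1 spot, and only named gene probes entered the fit. Normalised net intensity is the normalized value back on the linear scale. p-values measure only the spread between these arrays, whose number limits the precision. Where a standard error is given the n is 3 pairs.

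Same-numbered arrays share a scan batch. Over the 1657 probes, deviations from the group means correlated at 0.247, 0.259 and 0.0578 between same-numbered arrays, against -0.268 to 0.00051 for other numbers. Deviations of a probe within a group cancel out, so part of this contrast is set by the calculation. The pairing follows the headers and the rule, and the third correlation was weak.

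Gene names are those of the array files. Among the 1657 probes 1405 names are current symbols in the GRCh38.p14 gene table, 197 are older symbols and 55 had no match. Named are the 10 probes of lowest p either way whose 3 pairs agree in direction, the 5 brightest, 2 of lowest p in each gene list, 2 either side of the threshold and 5 genes with several included probes. The latter were the genes with the lowest p on either included probe. Probes and lists were chosen with earlier results of these data known. The steps were tested on simulated data. Alternatives were the unpaired fit, all 9 arrays, other background corrections, normalizations, floors and variance priors, the methods' t-test, the authors' table, other membership rules and leaving out each pair. The spot-position alternatives were added after seeing the data. No probe sequence was used here. Figures were drawn with matplotlib 3.10.9.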

Additional observations from a re-analysis of the deposited data

How the results depend on the processing

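No described probe was called at an adjusted p of 0.05 in any alternative that kept the 3 pairs. The other membership rules reused the main fit, which called 0 of 25378 named probes. Their lack of calls was thus fixed in advance. Leaving out 1 pair gave 1 to 11 calls among the described probes with 1 residual degree of freedom before moderation. These were CA13 without pair 1, and 11 without pair 2 (TBCA, CEP164, ARSB, CA13, TANK, WNT10A, FAM178A, XCR1, OVOL2, ST3GAL4 and MGAT2). Without pair 3 they were ALX1, PRRX2, KLHDC5 and ARSB. In the 11 without pair 2, pairs 1 and 3 had opposite signs for WNT10A, TANK, OVOL2 and MGAT2. They had the same sign for the others. Over all named probes the counts were 1, 42 and 9, and normexp and centring on the described probes called 1 probe each outside them. The count of 141 at an unadjusted p under 0.05 was 85 with no replicate block and 38 with all 9 arrays in 1 fit. As shares of the described and of all named probes these were 5.13% and 4.57%, and 2.29% and 3.39%, where the paired fit gave 8.51% and 4.9%. The shares were 4.89% and 5.04% in the methods' t-test and 10.3% and 11.3% when centred on the described probes. The count was 69 on raw intensity (4.16%, against 1.93% of all named probes) and 213 with median centring alone (12.9%, against 5.21%). It was 81 in the methods' t-test (0 after Benjamini-Hochberg). Outside the last 3 stretches it was 84 (5.74%, against 4.69% of all named probes there). Leaving out a pair gave 103 to 131. Without pairs 1, 2 and 3 in turn the shares were 7.91%, 6.22% and 7.48%, against 4.73%, 5.91% and 5.91% of all named probes. Without pair 2, the last 3 stretches still held 25 lower and 3 higher of these among 193 probes. Higher probes made up 41.8% of that count, but 63.2% with 9 arrays, 10.3% with median centring alone, 68% outside the last stretches and 63.4% with the trend over rows and columns removed. Of the probes with 3 pairs one way, 27.6% were higher on raw intensity and 16% with median centring alone, against 45.3%. The median difference was -0.11 with median centring alone, -0.068 in the authors' table and -0.034 to 0.023 without a pair. Centring on the described probes moved the median of all named probes to 0.12. The mean correlation of pair differences, 0.129, was 0.0251 on raw intensity. That count of 3 pairs one way was not run without a pair, since it needs 3. The cause of these changes was not tested.

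Of 57 named probes 38 kept their sign under all 17 alternatives, and the others changed sign in at least 1. Several of these alternatives could not change a difference, so they add nothing to that count. They were the fit with no replicate block, the methods' t-test, the other variance priors, the higher floor and the fit of probes above the median level. With median centring alone ATF3 differed by -0.073, CD3D by -0.12, the second KLHL36 probe by -0.053, PSMA1 by -0.017, PTGES3 by -0.015, RPL10 by -0.12, RPL23 by -0.058, the second SETD3 probe by -0.0016 and TGFBR1 by -0.024. On raw intensity CDH7 differed by 0.0064, CYP1A2 by -0.082, TGFBR1 by -0.035 and UBE2C by 0.14. With the trend removed CD3D differed by -0.010, the second KLHL36 probe by -0.0029, PTGES3 by -0.0024 and TAF1 by 0.037. Otherwise CD3D differed by -0.0039 with cyclic loess and CYP1A2 differed by -0.11 in the authors' table. Leaving out a pair moved CD3D over -0.031 to 0.076, CDH10 over -0.038 to 0.63, CYP1A2 over -0.053 to 0.15, HSPA5 over -0.22 to 0.022, the second KLHDC5 probe over -0.20 to 0.044, the second KLHL36 probe over -0.036 to 0.094, PDGFRB over -0.37 to 0.21, PFN1 over -0.74 to 0.59, PTGES3 over -0.13 to 0.23, the second SETD3 probe over -0.021 to 0.21 and SLC2A3 over -0.30 to 0.0079. Local background made up most of the raw intensity of the described probes, and its part in these values was not tested.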
